A study of Mus musculus with 9 samples.

Results

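The 46 genes described here encode the building blocks of the cytoskeleton and the proteins that hold actin filaments in shape: 2 actins, 7 proteins that bind actin monomers or filament ends, 8 that crosslink or coat filaments, 7 myosin chains, 4 tropomyosins, 5 proteins of the microvillus and cell cortex, 10 tubulins and 3 keratins. They were taken by symbol from a table of 30519 rows with 1 transcript a gene, and all 46 had a row. The list was drawn up with the knockout comparison already known, so which members differed between the genotypes, and by how much, describes the list and is no independent test of it.

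Livers of 9 mice aged 6 weeks were measured by RNA-seq after polyA selection. The KO group held 4 mice without miR-122, a microRNA that hepatocytes make in large amounts, of which replicate 1 was female and replicates 2, 3 and 4 were male. The WT group held 5 floxed littermates, with replicates 1, 2 and 3 female and replicates 4 and 5 male. No source used here names the Cre line, the cells in which it acted or the strain, and neither group is described as treated. miR-122 itself was not analysed here, so the genotypes rest on the labels.

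Actin filaments and microtubules are polymers that a cell builds from a pool of monomers, and keratins form the tougher intermediate filaments of epithelial cells. In a hepatocyte, actin filaments line the cell cortex, fill the microvilli that face the bile canaliculus and carry the myosin that squeezes it, while the simple epithelial keratins Krt8 and Krt18 pair into filaments. Many genes for actin and its partners are known targets of SRF, a transcription factor that senses the pool of actin monomers through MRTF cofactors and binds a short element called the CArG box.

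Because CArG boxes mark many actin genes, the RefSeq promoters of the members (250 bases before to 50 after a start site, GRCm38.p6) were searched for exact matches on either strand. A promoter was listed for 43 of the 46 genes, and Actb, Tubb6 and Tubb2b had none. The box was found in 5 of the 43 genes (11.6%), against 1.81% of 27025 genes and 1.63% of 32851 promoters in the whole table. The 5 matches, which include the promoter of the member with the largest change, are printed with 10 bases on each side, read along the strand of the gene, with the box in capitals.
Vil1, chr1:74409301-74409330, plus strand, box from 73 to 64 bases before the start: ccctatcttcCCTTATATGGtgaaggaagt
Actg1, chr11:120348566-120348595, minus strand, box from 90 to 81 bases before the start: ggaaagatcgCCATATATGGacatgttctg
Cnn2, chr10:79988534-79988563, plus strand, box from 56 to 47 bases before the start: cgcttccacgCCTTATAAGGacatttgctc
Myl9, chr2:156775293-156775322, plus strand, box from 161 to 152 bases before the start: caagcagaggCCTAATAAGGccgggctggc
Myl6, chr10:128493040-128493069, minus strand, box from 50 to 41 bases before the start: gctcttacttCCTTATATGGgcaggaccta
All 5 boxes lay upstream of the RefSeq start that was searched, and those of Vil1 and Myl6 had the same 10 letters. The listed Myl6 transcript spans chr10:128490860-128493875 on the minus strand, so the Myl6 box lies inside that span, downstream of the start of the measured transcript. The ratios of means were 43.3 for Vil1, 3.59 for Actg1, 2.27 for Cnn2, 2.16 for Myl9 and 1.60 for Myl6; 36 of the 45 tested members were called higher on a list chosen for that contrast, so nothing is read from their shared direction. A second motif, GGAATG on either strand, which TEAD factors bind, was present in 10 of the 43 genes (23.3%), against 16.6% of all genes and 14.7% of all promoters. No member held both motifs. A match describes letters in a window, and no binding was measured.

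Values in the text are the authors' normalised abundances, which are per transcript length and have no further unit. They are given in replicate order, and then, for the members with the larger changes, as mean ± SD (n = 4 KO and n = 5 WT livers). Ratios and folds are the KO mean over the WT mean. A transcript is called higher or lower where limma's moderated test on log2 (abundance + 1) gave a Benjamini-Hochberg adjusted p under 0.05 over the 10950 transcripts with a mean of at least 1. Each mouse is 1 replicate. In whole-liver RNA, fewer cells of a type and less RNA per cell cannot be told apart.

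Of the 46 members, 45 entered the test, since Tubb2b lay under the filter. Of these, 36 were called higher in KO, 1 was called lower and 8 were not called. Over all transcripts tested, 21.4% were called higher and 14.5% lower, and nothing is read from the difference because the list was chosen on this contrast. The median log2 fold change of the 45 was 0.88, beside 0.03 over all transcripts tested. Every KO liver lay above every WT liver for 33 members (32 of the tested 45) and below for 1, Tuba4a; the shares among all transcripts were 19.0% and 12.1%. The remaining 12 overlapped, 4 of them called higher (Actb, Flna, Tubb2a and Tubb6). There were 24 members called higher with at least a 2-fold ratio of means, a class that held 8.54% of all transcripts. In the authors' deposited table, 34 of the 46 were higher in KO and 1 lower at a q of 0.05, where 13.6% and 11.6% of its 13540 transcripts were; Myh10, Myh14 and Flna were called higher by limma alone and Tubb2b by the authors alone.

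The summed abundances of the KO libraries were lower than those of the WT libraries, 0.711 to 0.869 M (mega) units against 0.873 to 1.17 M, and this touches every comparison here. With all libraries scaled to the same total, the median over all transcripts rose from 0.03 to 0.36 on the log2 scale and that of the members from 0.88 to 1.20. On that scale 41 members were called higher and 0 lower, among 45.0% higher and 2.72% lower of all transcripts. Actn4, Cnn3, Lcp1, Tuba1c and Tubb4b, not called on the deposited scale, were called higher there (limma, adjusted p = 0.00287 to 0.0245). Mean reads here are exponentials of the deposited mean natural log observation, so they are geometric means over the 9 libraries. Summed over the listed transcripts they came to 16.5 M, and the members had between 10.1 (Tubb2b) and 4228 (Tmsb4x). Capg, Flna and Tubb2b had under 50.

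**Figure D1:**
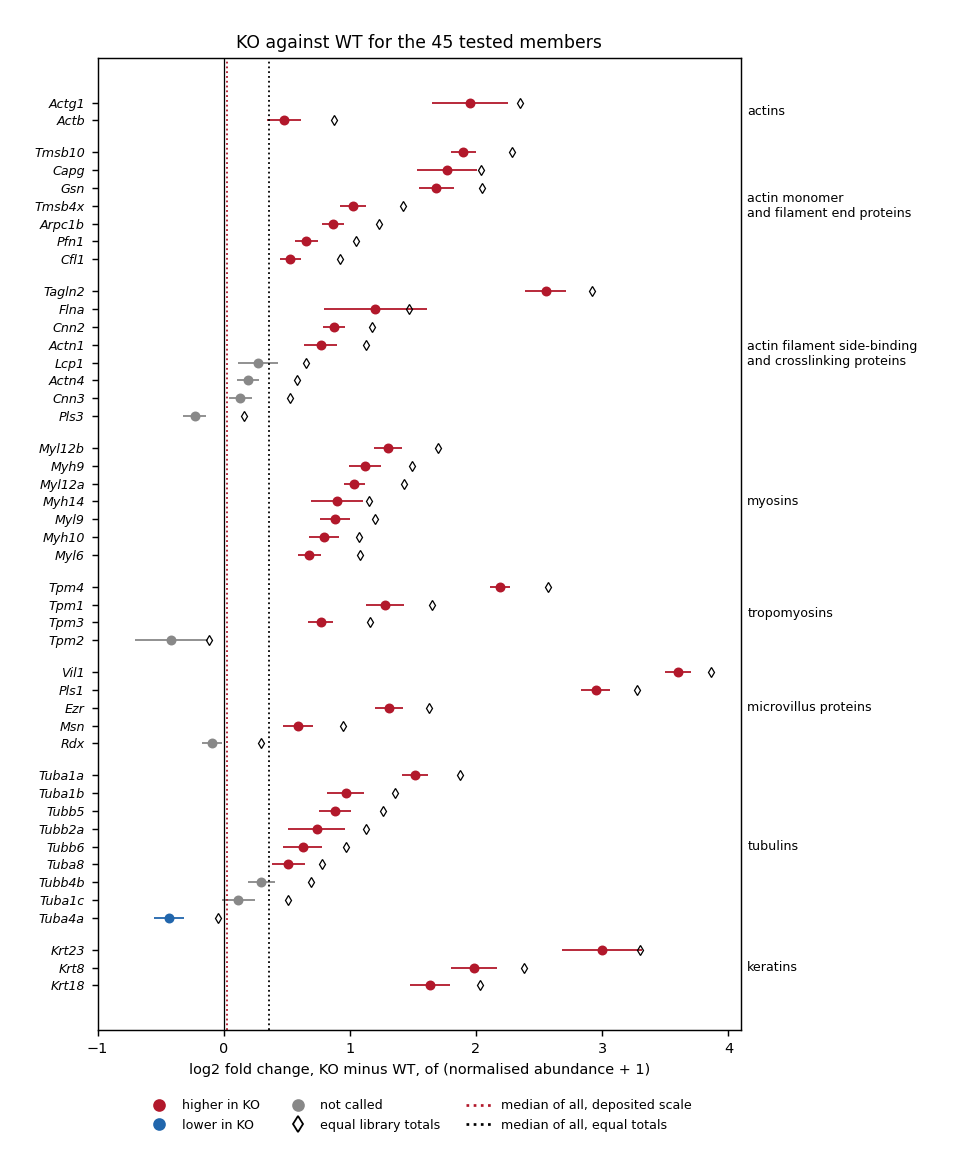
Log2 fold change of (abundance + 1), KO minus WT, for the 45 tested members by family, with bars of 1 standard error; red points were called higher, blue lower and grey not called, and open diamonds give the value with equal library totals. Most points lie to the right of 0, with Vil1 farthest at 3.60, and Tuba4a is the 1 blue point.

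In the control livers, the most abundant members were Myl6 (362 ± 29.3) and Tmsb4x (303 ± 33.4), with overlapping ranges of 328 to 401 and 264 to 341. Cfl1 (146 ± 8.53) and Pfn1 (144 ± 15.9) followed and overlapped each other, as did Actb (88.0 ± 16.9), Krt8 (84.0 ± 26.2) and Krt18 (77.7 ± 17.5) after them. At the other end, Capg, Myh14, Vil1 and Tubb2b had WT means under 1. In KO liver Tmsb4x (616 ± 56.4) and Myl6 (580.3 ± 46.5) again led and overlapped. Krt8 came next, above all remaining members in each of the 4 livers, and Krt18, Pfn1 and Cfl1 followed with overlapping ranges. Replicates of the same genotype were close for most members, with a median coefficient of variation of 10.9% in KO and 16.3% in WT, beside 13.3% and 15.7% over all transcripts tested.

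Of the microvillus proteins, Vil1 had the largest ratio of means of the list. It encodes villin, which bundles the actin core of microvilli and can also sever filaments. Its abundance lay at 15.2, 14.8, 16.0 and 15.1 in the KO livers and 0.602, 0.124, 0.352, 0.411 and 0.275 in the WT livers. No WT liver exceeded 0.602, and the KO livers stayed between 14.8 and 16.0. The means were 15.3 ± 0.527 in KO and 0.353 ± 0.176 in WT, a ratio of 43.3. Its mean reads were 86.5 over the 9 libraries, a geometric mean that does not give the depth of the WT livers alone. Of the 31-base words in its transcript, 0.679% also occur in a transcript of another gene, which bears on how surely reads can be assigned to it. Pls1 encodes plastin 1, or fimbrin, the other bundler of the microvillus core, and it followed the same pattern. Its values were 26.3, 21.1, 20.3 and 23.1 in the KO livers and 2.34, 2.53, 1.86, 1.56 and 2.10 in the WT livers, with a gap between the highest WT and the lowest KO liver. The means were 22.7 ± 2.67 and 2.08 ± 0.383, a ratio of 10.9, and none of its 31-base words is shared with another gene.

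Ezrin, moesin and radixin tie the plasma membrane to the actin cortex, and the ratios of the 3 genes were unlike. Ezr, the form typical of epithelia with a brush border, was measured at 7.12, 6.85, 8.13 and 6.48 in the KO livers and 2.86, 2.65, 1.92, 2.09 and 1.94 in the WT livers. All 4 KO livers were above all 5 WT livers, at 7.14 ± 0.706 against 2.29 ± 0.436, 3.12-fold. Msn, the main form in leukocytes and endothelium, was measured at 12.3, 10.1, 13.5 and 10.2 in the KO livers and 9.21, 7.02, 6.29, 7.09 and 7.07 in the WT livers, and the groups did not overlap, although KO replicates 2 and 4 came within 1 unit of WT replicate 1. The ratio was 1.57. Rdx, the main form in hepatocytes, was measured at 60.9, 51.5, 53.2 and 54.5 in the KO livers and 58.0, 54.2, 62.2, 63.7 and 55.9 in the WT livers. These groups overlapped, the ratio was 0.935, and no call was made; its log2 fold change went from -0.10 to 0.30 with equal library totals. Radixin was the most abundant of the 3 in every liver. Its share of their sum was 74.7 ± 2.47% in KO and 85.9 ± 2.18% in WT, while ezrin's was 9.71 ± 0.905% and 3.36 ± 0.695%, and neither share overlapped between the genotypes. The ratio of villin to ezrin transcripts lay between 1.97 and 2.34 in the KO livers and between 0.0469 and 0.210 in the WT livers, so villin passed from the minor to the major of the pair.

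**Figure D2:**
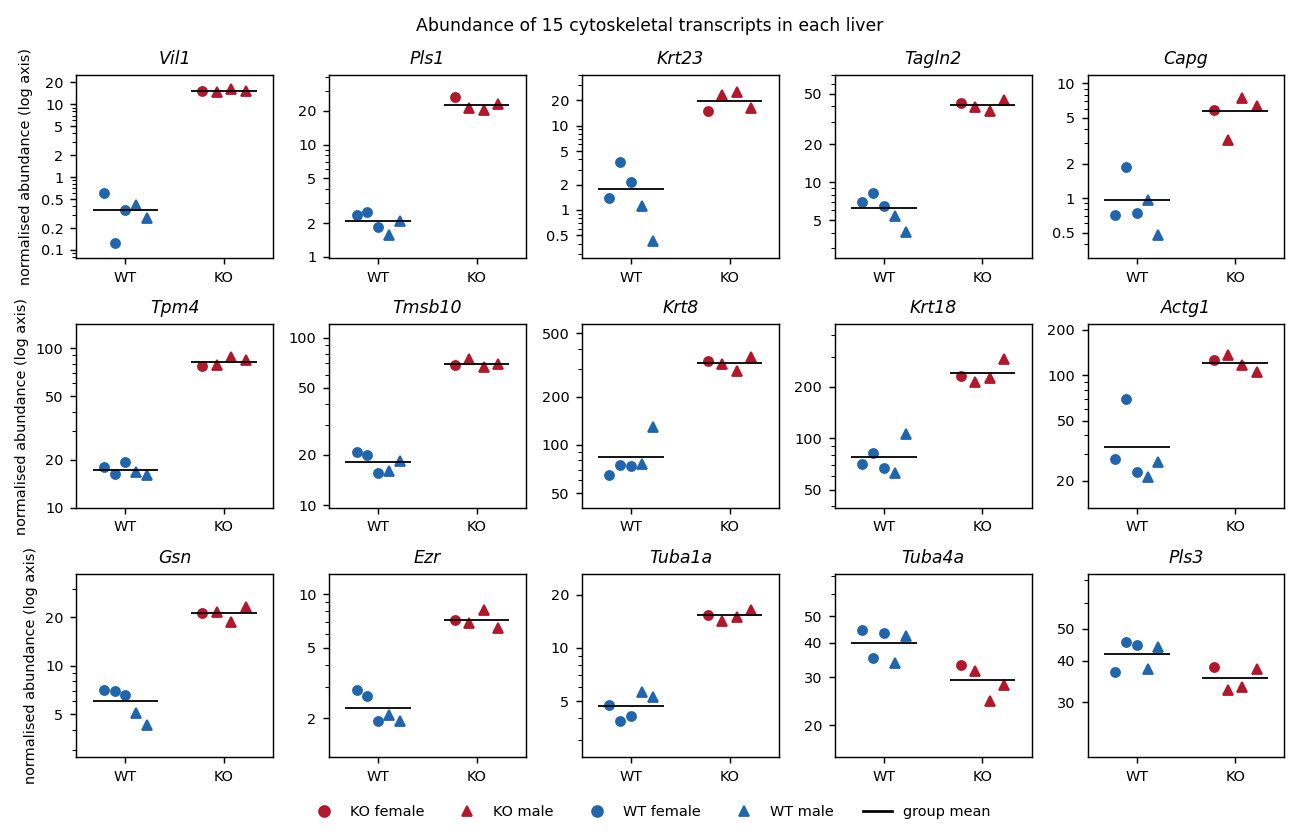
Abundance of 15 members in each liver on log axes, with WT in blue and KO in red, circles for females, triangles for males and a line at each group mean. For 14 of the 15 the groups do not overlap; Tuba4a is the 1 of these that is lower in KO, and Pls3 overlaps.

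All 3 keratins were called higher in KO, and for all 3 the groups did not overlap. Krt8, the type II keratin of hepatocytes and bile duct cells, was measured at 334, 321, 291 and 355 in the KO livers and 64.8, 75.2, 74.2, 75.5 and 130.3 in the WT livers. WT replicate 5 was the highest WT liver and stood apart from the other 4, which lay between 64.8 and 75.5, yet it reached less than the lowest KO liver at 291. The means were 325 ± 26.8 and 84.0 ± 26.2, 3.87-fold, or 4.49-fold without that library. Krt18, its type I partner, was measured at 233, 215, 227 and 290.3 in the KO livers and 70.5, 81.7, 66.9, 63.0 and 107 in the WT livers. Again WT replicate 5 was the highest WT liver and all KO livers were above it, at 241 ± 33.6 against 77.7 ± 17.5, 3.10-fold. Both genes lie on chromosome 15, 23697 bases apart and on opposite strands (Krt8 at chr15:101996698-102004482 and Krt18 at chr15:102028180-102032027). The ratio of Krt8 to Krt18 transcripts ran from 1.22 to 1.49 in KO and from 0.919 to 1.22 in WT, so the 2 ranges met at the edge. Krt23, a type I keratin on chromosome 11, was measured at 14.9, 23.0, 25.2 and 16.2 in the KO livers and 1.38, 3.75, 2.16, 1.12 and 0.432 in the WT livers. It was low in every WT liver and above 14 in every KO liver, with means of 19.8 ± 5.05 and 1.77 ± 1.27, a ratio of 11.2.

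Both actins were called higher, with unlike ratios. Actb, beta-actin, was measured at 119, 117, 113 and 136 in the KO livers and 90.4, 90.2, 70.3, 75.3 and 114 in the WT livers. WT replicate 5 lay above KO replicate 3, so the groups overlapped, with means of 121 ± 10.4 and 88.0 ± 16.9 and a ratio of 1.38, the smallest of any member called higher. The call was lost among males alone (limma, adjusted p = 0.214, 3 KO and 2 WT) and without KO replicate 4 (limma, adjusted p = 0.0622). Actg1, gamma-actin, was measured at 125, 136, 117 and 105 in the KO livers and 28.1, 69.2, 22.8, 21.3 and 26.6 in the WT livers. WT replicate 2 stood apart from the other WT livers, which lay between 21.3 and 28.1, but was still under every KO liver. The means were 121 ± 13.0 and 33.6 ± 20.1, a ratio of 3.59, or 4.89 without that library. Gamma-actin made up 49.8 ± 4.40% of the 2 transcripts in KO and 26.5 ± 9.69% in WT. The lowest KO share was 43.5% and the highest WT share, in replicate 2, was 43.4%, so these ranges were separated by almost nothing. Of the 31-base words of Actg1, 57.1% also occur in other genes, most of them in Gm12715, and reads of such copies can be split between genes.

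All 7 proteins that act on actin monomers or filament ends were called higher in KO, and for all 7 the groups did not overlap. Tmsb4x, thymosin beta 4, which sequesters actin monomers, was measured at 632, 533, 645 and 656 in the KO livers and 325, 314, 341, 272 and 264 in the WT livers. With a ratio of 2.03 it gained more units than any other member. Tmsb10, thymosin beta 10, was measured at 68.1, 74.9, 66.6 and 69.3 in the KO livers and 20.7, 19.8, 15.4, 15.9 and 18.4 in the WT livers. It had the larger ratio of the pair, 3.86, and its share of the 2 thymosins was 10.2 ± 1.40% in KO and 5.66 ± 0.816% in WT, without overlap. Gsn, gelsolin, which severs filaments and caps their ends, was measured at 21.4, 21.6, 18.8 and 23.2 in the KO livers and 7.07, 6.96, 6.53, 5.10 and 4.29 in the WT livers. Its ratio was 3.55. Capg, a capping protein of the gelsolin family abundant in macrophages, was measured at 5.84, 3.18, 7.47 and 6.29 in the KO livers and 0.707, 1.88, 0.737, 0.971 and 0.481 in the WT livers. KO replicate 2 was the lowest KO liver and still above WT replicate 2, the highest WT liver. The ratio was 5.96, from 35.6 mean reads. Cfl1, cofilin, which severs filaments and speeds their turnover, Pfn1, profilin, which delivers monomers to growing ends, and Arpc1b, a subunit of the Arp2/3 nucleator, had ratios of 1.45, 1.57 and 1.92. Cfl1 ran from 195 to 241 in KO and from 136 to 159 in WT. Pfn1 ran from 220.0 to 244 and from 129 to 162, and Arpc1b from 15 to 16.6 and from 7.0 to 9.04.

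Of the proteins that coat or crosslink filaments, 4 of 8 were called higher and 4 were not called. Tagln2, transgelin 2, a calponin family protein that stabilises filaments, was measured at 42.5, 39.6, 36.5 and 44.4 in the KO livers and 7.04, 8.29, 6.49, 5.37 and 4.04 in the WT livers. Its ratio of 6.52 was the largest of the group, and a wide gap separated the lowest KO liver, at 36.5, from the highest WT liver, at 8.29. Cnn2, calponin 2, was measured at 4.52, 4.26, 4.47 and 4.15 in the KO livers and 2.02, 2.08, 1.75, 1.58 and 2.17 in the WT livers. The KO livers lay between 4.15 and 4.52 and the ratio was 2.27, whereas Cnn3, calponin 3, ran from 60.8 to 74.5 in KO and from 56.4 to 70.9 in WT, a ratio of 1.10, and was not called. The alpha-actinins also divided: Actn1 ran from 9.01 to 11.9 in KO and from 4.35 to 7.31 in WT, 1.81-fold, while Actn4, the more abundant form, ran from 31.3 to 39.2 and from 27.9 to 32.3 and was not called at 1.15-fold. Actn1 made up 23.6 ± 1.85% of the pair in KO and 16.4 ± 2.76% in WT, without overlap.

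Of the 3 plastins, Pls1 was called higher and its relatives were not called. Pls3, plastin 3, ran from 32.7 to 38.3 in KO and from 37.1 to 45.7 in WT, a ratio of 0.847, and Lcp1, the leukocyte plastin, ran from 21.7 to 29.2 and from 15.9 to 28.1, a ratio of 1.20. The log2 fold change of Pls3 was -0.23, and 0.16 with equal library totals. That of Lcp1 was 0.27, and 0.66 with equal library totals, where it was called higher. Pls1 went from 3.19 ± 0.654% of the 3 plastins in WT to 27.0 ± 2.35% in KO, and Pls3 from 64.0 ± 5.46% to 42.2 ± 2.06%, both without overlap, while Lcp1 held 32.8 ± 5.77% and 30.9 ± 4.17%, with overlap. Flna, filamin A, was represented by a 738-base processed transcript rather than the coding form. It was measured at 1.78, 5.24, 5.99 and 5.41 in the KO livers and at 1.87, 1.59, 0, 1.10 and 3.09 in the WT livers, where the entry given as 0 is listed at 3.24e-09. The female KO liver lay within the WT range and the 3 male KO livers above it. The call of higher, at 3.01-fold, was lost when any 1 of 7 libraries was left out (KO replicates 2 to 4, WT replicates 1 to 4; limma, adjusted p = 0.0570 to 0.115).

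**Figure D3:**
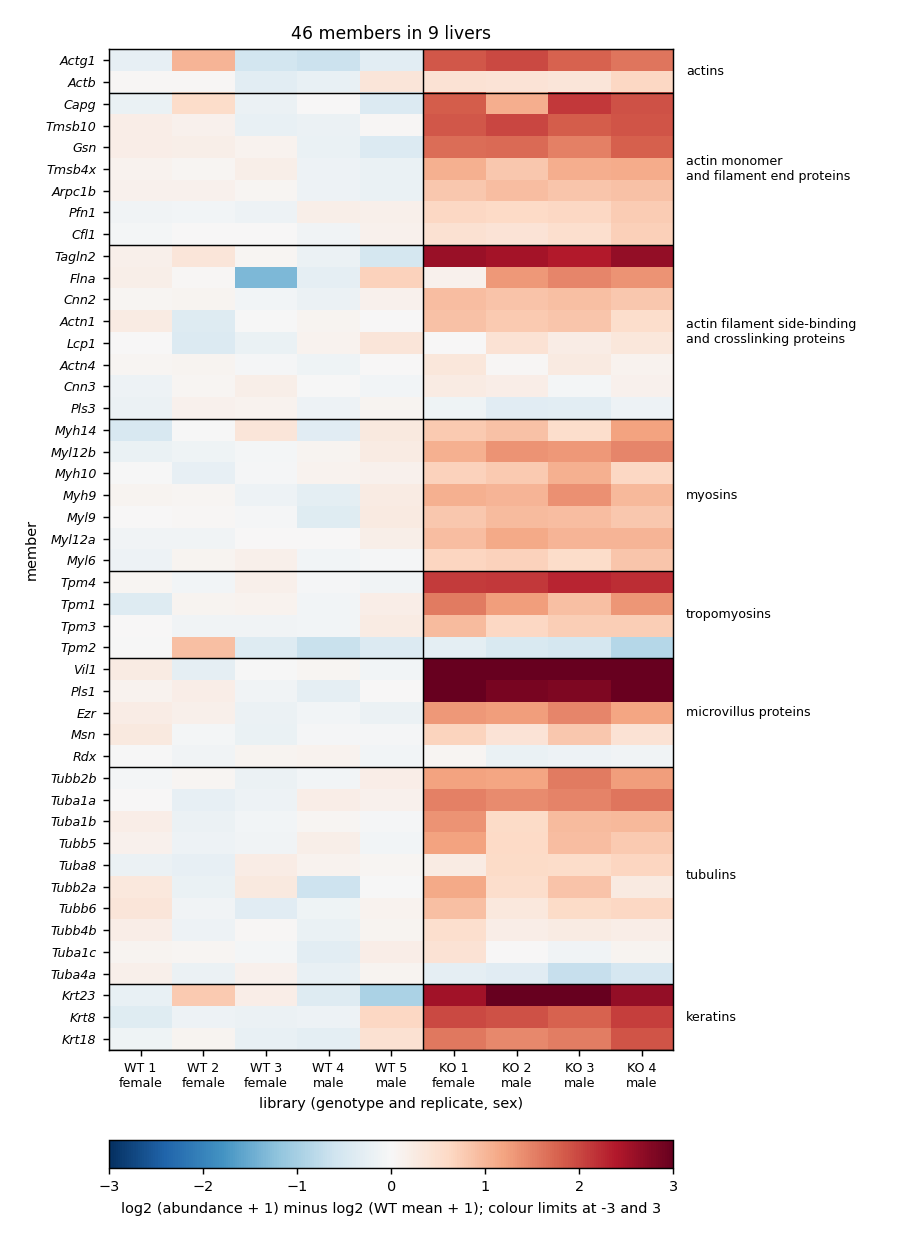
Log2 (abundance + 1) of each of the 46 members in each of the 9 livers, minus the log2 of (WT mean + 1), with red above and blue below the WT mean and colours limited at a difference of 3 either way. The 4 KO columns are red for most rows, darkest for Vil1 and Pls1, and Actg1 in WT replicate 2 stands out among the WT columns.

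All 7 myosin chains were called higher, without overlap between the genotypes. Nonmuscle myosin II is built from a heavy chain, a regulatory light chain and an essential light chain. Myl6, the essential light chain, was measured at 567, 583, 529.9 and 641 in the KO livers and 328, 383, 401, 344 and 356 in the WT livers. Its ratio was 1.60, and 65.4% of its 31-base words also occur in other genes, most of them in Gm5526. The regulatory light chain Myl12a was measured at 102, 119.6, 110.3 and 109 in the KO livers and 49.3, 49.5, 53.6, 54.2 and 61.0 in the WT livers, 2.06-fold. Its neighbour and near twin Myl12b was measured at 86.1, 105, 100.2 and 113 in the KO livers and 35.2, 37.0, 39.0, 42.7 and 48.2 in the WT livers, 2.50-fold. These 2 genes lie 3403 bases apart on chromosome 17. Of the 31-base words of Myl12a, 51.5% also occur in Myl12b, and 14.5% of those of Myl12b occur in Myl12a, so reads can be split between them. Myl12b was the lesser of the pair in all WT livers, and in KO replicate 4 it passed Myl12a; the ratio of Myl12a to Myl12b was 1.26 to 1.40 in WT and 0.964 to 1.19 in KO. Myl9, the regulatory light chain typical of smooth muscle, was measured at 5.05, 5.68, 5.55 and 5.10 in the KO livers and 2.51, 2.57, 2.40, 1.70 and 3.21 in the WT livers. Its ratio was 2.16.

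The 3 heavy chains had ratios within a narrow span. Myh9, the heavy chain of myosin IIA, was measured at 23.1, 22.5, 28.8 and 21.8 in the KO livers and 11.3, 11.1, 9.39, 8.38 and 12.6 in the WT livers, 2.28-fold. Myh10, of myosin IIB, was measured at 2.72, 2.97, 3.80 and 2.54 in the KO livers and 1.28, 0.949, 1.26, 1.50 and 1.53 in the WT livers, 2.30-fold. Myh14, of myosin IIC, was measured at 2.47, 2.69, 1.90 and 3.62 in the KO livers and 0.427, 0.976, 1.55, 0.588 and 1.45 in the WT livers, 2.67-fold. Their mix did not separate the genotypes: Myh9 held 80.8 ± 2.35% of the 3 in KO and 82.0 ± 4.03% in WT, Myh10 10.1 ± 0.884% and 10.3 ± 2.54%, and Myh14 9.18 ± 3.05% and 7.68 ± 3.59%, each with overlap. Among males alone the call of Myh14 was lost (limma, adjusted p = 0.0745), and the authors' deposited table gives Myh10 and Myh14 a q of 0.691 and 0.672.

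Tropomyosins lie along actin filaments and set which proteins reach them. Tpm4 was measured at 76.9, 78.7, 88.1 and 84.1 in the KO livers and 17.9, 16.2, 19.3, 16.7 and 16.0 in the WT livers. Both groups were tight and far apart, at 81.9 ± 5.09 and 17.2 ± 1.40, 4.76-fold. Tpm1 was measured at 29.6, 24.0, 18.5 and 25.3 in the KO livers and 6.96, 10.04, 10.2, 8.87 and 11.0 in the WT livers, without overlap and 2.58-fold, and the row is 1 of the 21 annotated transcripts of that gene. Tpm3 was measured at 64.5, 50.6, 55.3 and 54.7 in the KO livers and 32.8, 30.5, 30.1, 30.8 and 39.1 in the WT livers, without overlap and 1.72-fold, with 75.7% of its 31-base words shared, mostly with Tpm3-rs7. Tpm2 was not called: it was measured at 3.35, 2.89, 2.71 and 1.97 in the KO livers and 4.28, 8.98, 3.06, 2.36 and 3.04 in the WT livers, the groups overlapped, with WT replicate 2 the highest of all, and the ratio was 0.628. Within the family, Tpm3 was the most abundant in every WT liver and Tpm4 in every KO liver. Tpm3 held 51.3 ± 4.09% of the 4 in WT and 34.0 ± 2.05% in KO, and Tpm4 27.2 ± 3.18% and 49.7 ± 3.96%, neither with overlap, while Tpm1 held 14.8 ± 2.03% and 14.7 ± 2.44%.

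**Figure D4:**
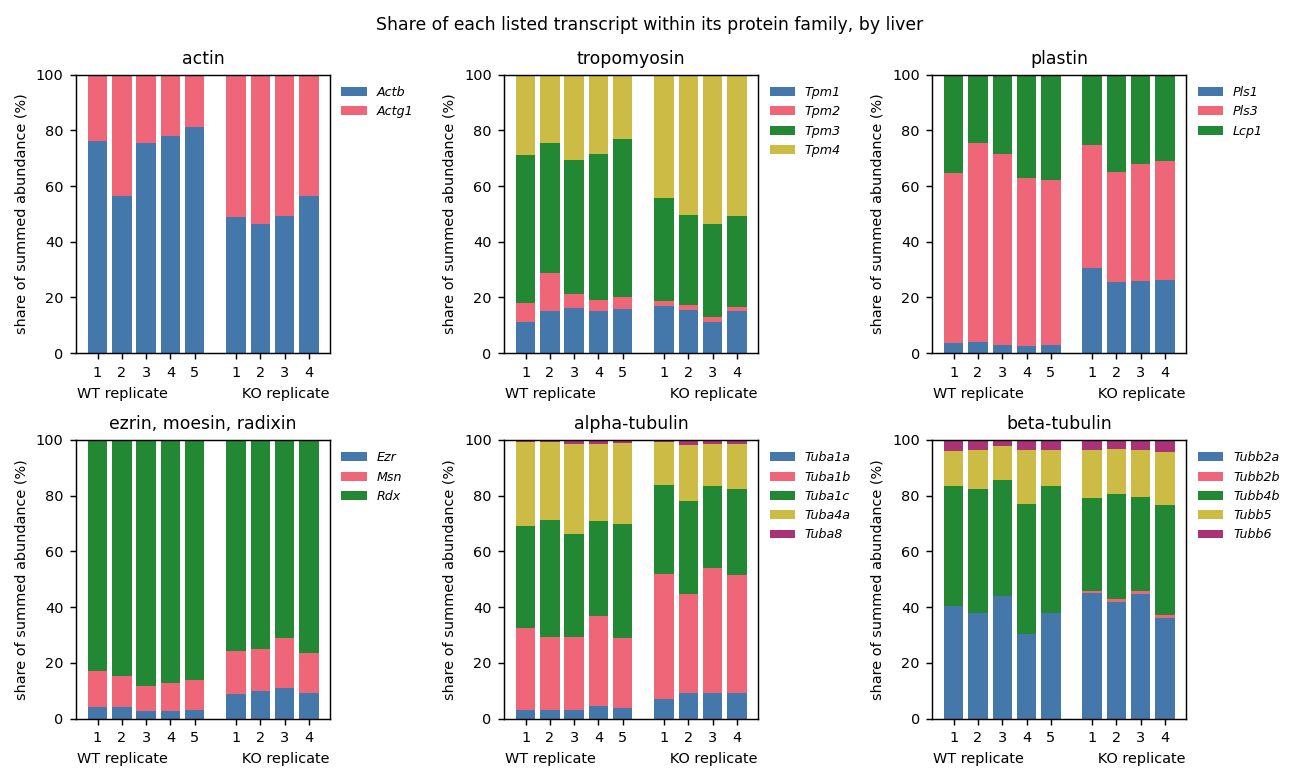
Share of each listed transcript in the summed abundance of its family, in percent, for each WT and KO liver in 6 families. Gamma-actin, Tpm4, Pls1, Ezr and Tuba1b take a larger share in every KO liver than in any WT liver, and Pls3, Rdx and Tuba4a a smaller one.

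Of the 10 tubulins, which pair as alpha and beta subunits, 9 were tested: 6 were called higher, 1 lower and 2 were not called. Among the alpha-tubulins, Tuba1a was measured at 15.4, 14.2, 15 and 16.3 in the KO livers and 4.75, 3.85, 4.12, 5.61 and 5.26 in the WT livers. The groups were separated and the ratio was 3.23. Tuba1b was measured at 97.2, 55.8, 72.8 and 74.8 in the KO livers and 43.1, 33, 35.2, 39.3 and 36.6 in the WT livers, separated and 2.01-fold, with the KO female highest. Tuba1c was measured at 70.0, 52.5, 47.9 and 54.4 in the KO livers and 54.5, 53.5, 49.6, 41.6 and 59.3 in the WT livers and was not called at 1.09-fold, with overlapping groups. The 3 genes sit together on chromosome 15, with 15271 bases between Tuba1b and Tuba1a and 76187 between Tuba1a and Tuba1c, and 78.6%, 86.0% and 63.9% of the 31-base words of Tuba1a, Tuba1b and Tuba1c are shared with other genes, so their separate levels are uncertain. Tuba8 was measured at 1.89, 2.63, 2.58 and 2.79 in the KO livers and 1.17, 1.04, 1.85, 1.63 and 1.53 in the WT livers, low in all livers, without overlap and 1.71-fold.

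Tuba4a, an alpha-tubulin with little word sharing (8.60%), was the 1 member called lower. It was measured at 33.1, 31.5, 24.5 and 28.0 in the KO livers and 44.5, 35.1, 43.6, 33.8 and 42.3 in the WT livers. The KO livers all lay below the WT livers, with the highest KO liver at 33.1 and the lowest WT liver at 33.8, and the ratio was 0.734. With equal library totals the log2 fold change went from -0.43 to -0.04 and the call was lost (limma, adjusted p = 0.820), as it was without KO replicate 3 (limma, adjusted p = 0.0536) and among males alone (limma, adjusted p = 0.108). Its share of the 5 alpha-tubulins, which does not depend on that scaling, was 16.6 ± 2.39% in KO and 29.4 ± 1.94% in WT without overlap. That of Tuba1b was 41.8 ± 4.30% and 27.8 ± 2.90%. A share also falls when other members of the sum rise, so it does not show that Tuba4a itself was lower. The sum includes Tuba1a and Tuba1b, which were called higher and whose separate levels are uncertain.

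Of the beta-tubulins, Tubb5, the form of dividing and most other cells, was measured at 45.9, 30.3, 37.7 and 34.1 in the KO livers and 21.3, 17.4, 18.1, 22.2 and 18.4 in the WT livers. The groups were separated and the ratio was 1.90. Tubb2a was measured at 119, 78.4, 98.1 and 64.8 in the KO livers and 67.2, 46.6, 66.6, 34.9 and 53.8 in the WT livers, with overlap. Tubb6, another beta-tubulin, was measured at 9.79, 6.24, 7.71 and 7.94 in the KO livers and 6.44, 4.39, 3.61, 4.30 and 5.26 in the WT livers, also with overlap. Both were called higher, at 1.68-fold and 1.65-fold. With the females left out neither call held (adjusted p of 0.0617 for Tubb2a and 0.0637 for Tubb6 by limma). That of Tubb2a was also lost when any of KO replicates 1 and 3 or WT replicates 2 and 4 was left out (limma, adjusted p = 0.0505 to 0.0796). Tubb4b, with Tubb2a the most abundant pair in each liver, was measured at 88.5, 70.7, 73.9 and 71.1 in the KO livers and 71.3, 55.1, 63.1, 53.9 and 65.0 in the WT livers and was not called at 1.23-fold. Tubb2b, best known from the developing brain, was measured at 1.60, 1.54, 2.31 and 1.66 in the KO livers and 0.0801, 0.170, 0, 0.0667 and 0.289 in the WT livers. It fell under the abundance filter and was not tested, with 10.1 mean reads, and it shares 45.9% of its 31-base words with other genes, mainly Tubb2a. Its ratio of means was 14.7, or 13.2 without KO replicate 3, and 1 of the 5 WT livers was at 0.

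Summed by family, the ratio of KO to WT was 3.59 for the keratins, 2.60 for the tropomyosins, 1.99 for the actins, 1.86 for the monomer and end proteins, 1.75 for the myosins, 1.58 for the microvillus proteins, 1.42 for the tubulins and 1.31 for the crosslinkers. These sums were separated between the genotypes in all 8 families and are led by the most abundant members. They add members of a list chosen on this contrast, and no share over all transcripts can be set beside a sum. Nothing is therefore read from that separation. The keratin sum ran from 543 to 661 in KO and from 137 to 237 in WT. The tubulin sum ran from 344 to 483 and from 237 to 314.

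Reads of similar genes can be split or mixed, so the 31-base words that a member's transcript shares with transcripts of other genes (GENCODE M21) were counted. There were 22 members with under 5% of their 31-base words shared, and 19 of these were called higher, 0 lower and 3 not (Pls3, Tpm2 and Rdx). Among the 11 with at least 50% shared, 9 were called higher. Over all transcripts tested, 21.4% were called higher and 14.5% lower. The list was chosen on this contrast, so these counts cannot show whether word sharing affected the calls. The table holds 1 transcript a gene, against a median of 4 annotated transcripts for the members, so a value can reflect 1 isoform.

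Sex was not used in choosing the members, so the contrast of the 2 male with the 3 female WT livers is separate from that choice. In a 3-group limma fit, 0 of 45 members differed between the sexes at an adjusted p of 0.05, where 0.594% of all transcripts did. With so small a share, most lists of this size would hold 0, so the count cannot set the members apart from other transcripts. At an unadjusted p of 0.05 there were 10 of the 45 members, beside 1476 of the 10950 transcripts (13.5%). Pfn1, Lcp1, Myl12b, Tuba1a and Krt8 were higher in males and Tmsb4x, Gsn, Arpc1b, Tagln2 and Krt23 higher in females. The smallest adjusted p was 0.120 (limma), for Gsn, at 6.85 on average in females and 4.70 in males. Krt8 was called, higher in males by 0.86 on the log2 scale (limma, adjusted p = 0.0355), when WT replicate 4 was left out, which leaves 1 male, WT replicate 5, assumed to vary like the other groups. The 1 female KO liver lay above all 3 male KO livers for 17 members, 7 of them among the 10 tubulins, and below them for 9, and with 1 animal this has no test. Among males alone (3 KO, 2 WT), 32 members were called higher and 0 lower, beside 12.9% and 7.38% of all transcripts, and nothing is read from this count, since the list was chosen on the same contrast.

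The summed levels of some cell type marker lists were separated between the groups and those of others overlapped. The part of these cell types in the results was not tested. A hepatocyte list of 8 genes had a summed level of 50258 to 68500 in KO and 47911 to 112125 in WT, a ratio of 0.742, and all 8 were above 0 in every library. Most of that sum was Alb, albumin, at 37940 to 54092 in KO and 29487 to 90015 in WT, while Hnf4a, a hepatocyte transcription factor, was at 101 ± 31.4 in KO and 91.3 ± 12.9 in WT. The cholangiocyte list, relevant to the keratins, villin and ezrin, had all 8 genes in the table and a sum between 20.2 and 25.6 in KO and between 4.54 and 6.08 in WT, a ratio of 4.02. Its keratins Krt19 and Krt7, which mark bile ducts, reached means of 2.13 ± 0.264 and 0.542 ± 0.220 in KO, beside 325 ± 26.8 for Krt8. The myofibroblast and smooth muscle list, relevant to Myl9, Tagln2, the calponins and the tropomyosins, had a sum between 117 and 143 in KO and between 27.8 and 36.8 in WT, a ratio of 3.92, most of it from Col3a1 and Lum. Acta2, smooth muscle actin, was at 3.56 ± 0.802 in KO and 1.60 ± 0.414 in WT. The list of other leukocytes, relevant to Lcp1, Msn, Capg and Arpc1b, had a sum between 85.7 and 131 in KO and between 24.4 and 53.2 in WT, a ratio of 2.86, and that of macrophages between 228 and 306 and between 148 and 211, a ratio of 1.56. Ptprc, the pan-leukocyte marker, was at 5.55 ± 1.86 in KO and 1.62 ± 1.17 in WT, while the leukocyte plastin Lcp1 was at 25.9 ± 3.24 and 21.5 ± 4.64. Endothelial, stellate, mesothelial and red cell lists had ratios of 0.967, 1.36, 1.51 and 1.62. Of these, only the stellate sums were separated between the groups. The endothelial, mesothelial and red cell sums overlapped, as did the hepatocyte sums. No listed marker was at 0 in all 9 libraries.

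The wider cytoskeleton was read from a second list of 150 genes, of which 139 were in the table and 99 were tested, with Coro1b, which has 2 rows of equal values, counted once. Of these, 54 were called higher and 2 lower, beside 21.4% and 14.5% of all transcripts, with a median log2 fold change of 0.41. With equal library totals 83 were higher and 0 lower, beside 45.0% and 2.72% of all transcripts. This list too was chosen with earlier results of these data known, so nothing is read from the differences. It also shares genes with the marker lists, among them Acta2, Tagln, Coro1a, Des and Krt19. The genes named are the 2 with the highest and the 2 with the lowest log2 fold changes among the called genes of each class, with the ratio of means in brackets. Nucleators of the Arp2/3 system had 6 of 13 called higher, led by the leukocyte genes Hcls1 (2.29) and Was (2.15), with Actr3 (1.26) and Arpc3 (1.22) smallest. Formins and other nucleators had 0 of 4 called by limma, and 1 of 4 at an unadjusted p of 0.05. Turnover and capping proteins had 11 of 15 higher, from Coro1a (3.48) and Twf2 (3.01) to Twf1 (1.23), and Cfl2, the muscle cofilin, was lower at 0.816. Other actins and actin binders had 10 of 13 higher, from the focal adhesion protein Zyx (2.37) and Marcksl1 (2.34) to Tln1 (1.55) and Palld (1.45).

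Regulators of myosin had 7 of 11 higher, led by the GTPases Rhoc (3.62) and Rhob (2.01), with Ppp1r12a smallest (1.32), and the light chain kinase Mylk was lower at 0.687. Brush border genes had 3 of 7 called higher: Espn, an actin bundler, at 1.83 ± 0.926 in KO and 0.374 ± 0.286 in WT, Eps8l2 (1.64) and Cdhr5 (1.36). Spectrin and ankyrin genes had 2 of 5 higher, Sptan1 (2.61) and Add1 (1.97). Microtubule proteins had 7 of 17 higher, led by Stmn1, stathmin, which binds free tubulin (2.74), and Dynll1 (1.76), with Kif5b (1.38) and Dync1h1 (1.31) smallest. Intermediate filament and lamin genes had 6 of 10 higher, led by Vim, vimentin (2.57), and Krt19 (4.09), with Lmna (1.55) and Lmnb1 (1.61) smallest. Srf itself was at 3.75 ± 0.504 in KO and 2.20 ± 0.232 in WT, and its cofactor Mkl2 at 3.53 ± 0.432 and 2.26 ± 0.198, both called higher, of 4 tested in their class. The 2 lower calls, Cfl2 and Mylk, were lost with equal library totals.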

How the data were processed

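PolyA RNA from the uncrosslinked part of each pulverised liver was sequenced, and samples were grouped by the genotype and sex in their labels; kallisto and sleuth were used with mm10, per the submitters' processing notes, with no version, transcript set or filter given in the sources used here. The per-library values are a normalised signal deposited by the authors, 1 transcript a gene: they are per length (slope of log2 reads per abundance on log2 length 1.07, r 0.923 across 4290 transcripts, which are not independent) and do not sum to a fixed total, so no count test was run. The p-value and q-value columns and the coefficient, on a natural log scale, were deposited by the authors; the sign was turned to KO minus WT and the coefficient converted to log2. Depth per library is not listed, and the geometric mean reads of the listed transcripts summed to 16.5 M (mega). No 2 libraries had identical values. The column of WT replicate 3 has male in its name but female in its label; a check of the Y-linked sum (at most 0.156 in labelled females, at least 50.2 in males) left the label in place.

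The 10950 transcripts whose mean across all 9 libraries reached 1 were fitted with limma 3.58.1 (R 4.3.3, limma-trend) on log2 (abundance + 1), a scale that understates the change of low transcripts. Genotype was the single term, and p-values were adjusted by Benjamini-Hochberg and called at 0.05. The WT sexes were compared in a fit of KO, WT female and WT male. The step was tested on simulated data. Members, marker lists and the wider list were chosen with earlier results of these data known. Values in every library are given for the actins, tropomyosins, myosin chains, microvillus proteins, tubulins, keratins and members with a ratio of means of at least 2 either way; in the wider list, the 2 highest and 2 lowest called members of each class are named. From that wider list 1 gene is not reported here and is in none of its counts. Annotation, coordinates and 31-base words are from GENCODE M21 (GRCm38, 98.6% of transcripts found) and promoters from RefSeq (GRCm38.p6). Alternatives were other pseudocounts, filters, thresholds, library scaling, no trend, sex as a covariate, males alone, a replicate block, leaving out each library and the authors' q.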

Additional observations from a re-analysis of the deposited data

Results flagged for a closer look

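In 5 of 92 groups of values (46 members in 2 genotypes), the highest library lay far from the others by Dixon's criterion. Chance flags about 1 in 20 groups, so a number of this order arises without any cause. Actg1, gamma-actin, was at 69.2 in WT replicate 2 and between 21.3 and 28.1 in the other WT livers. Krt8 was at 130.3 in WT replicate 5 and between 64.8 and 75.5 in the others. Msn, moesin, was at 9.21 in WT replicate 1 and between 6.29 and 7.09 in the others. Pfn1, profilin, was at 243.8 in KO replicate 4 and between 220.0 and 222.2 in the other KO livers. Tubb2b was at 2.31 in KO replicate 3 and between 1.54 and 1.66 in the others, at a depth of 10.1 mean reads. No library held more than 1 of the 5. Without the library in question the ratio of KO to WT was 4.89 in place of 3.59 for Actg1, 4.49 in place of 3.87 for Krt8, 1.68 in place of 1.57 for Msn, 1.53 in place of 1.57 for Pfn1 and 13.2 in place of 14.7 for Tubb2b.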

How the results depend on the processing

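The number of members called higher in KO, 36, ran from 24 (at least 2-fold) to 41 (equal library totals) over 21 alternatives and stayed within 1.5 times the main count; leaving out 1 library gave 34 to 36. The 1 lower call, Tuba4a, gave 0 with equal library totals, at an adjusted p of 0.01, among males alone, with the replicate block and at 2-fold, and 0 to 1 without 1 library (0 without KO replicate 3). Of 891 recomputed member values, 847 kept their direction and side of the threshold. Pls3 and Rdx turned positive with equal totals, at 0.16 (limma, adjusted p = 0.273) and 0.30 (limma, adjusted p = 0.0672). The cause of each change was not tested. Over all transcripts, 3934 calls became 2589 with a mean of at least 5 (fewer tested), 2362 at 0.01, 2216 among males alone (fewer libraries) and 1159 at 2-fold. The count between WT sexes, 65, was 43 without a filter, 15 at 0.01 and 22 to 217 without 1 library; for members it was 0 to 1, the 1 being Krt8 without WT replicate 4.

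Replicate numbers did not pair the libraries: deviations of same-numbered KO and WT libraries correlated at 0.229, 0.0823, -0.184 and 0.113 across transcripts, and 1 of 4 KO libraries correlated best with its own number. Libraries of the 2 groups still shared some structure. KO replicates 1 and 2 correlated best with WT replicate 1 (0.229 and 0.154), and KO replicates 3 and 4 with WT replicate 5 (0.228 and 0.201). WT replicate 1 is female and WT replicate 5 is male. KO replicates 1, 3 and 4 thus correlated best with a WT liver of their own sex, and KO replicate 2 did not. Whether sex or another factor was the source of this structure was not tested. The replicate block, over the 8 libraries numbered 1 to 4, gave 36 members higher and 0 lower. Members near the threshold were Flna (limma, adjusted p = 0.0443) and Tubb4b (limma, adjusted p = 0.0529). Depth limits Capg, Flna and Tubb2b, each under 50 mean reads.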
